A study of Mus musculus with 3 samples.

Results

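The colony-stimulating factors and their receptors are the genes through which a tissue sets how many macrophages, monocytes and neutrophils it holds. The 8 genes described here were chosen by name, with earlier results of these data known. They are the ligands Csf1, Il34, Csf2 and Csf3, and the receptor genes Csf1r, Csf2ra, Csf2rb and Csf3r. All 8 were found among the 36530 features of the count tables. CSF1 and IL34 are separate ligands of a single tyrosine kinase receptor, encoded by Csf1r, on which most tissue macrophages depend. GM-CSF, encoded by Csf2, binds a receptor made of its own alpha chain (Csf2ra) and a beta chain (Csf2rb) that the receptors for IL-3 and IL-5 also use. G-CSF, encoded by Csf3, acts through Csf3r and drives the production and release of neutrophils. Fibroblasts and endothelium are well-known sources of CSF1 and G-CSF, keratinocytes and neurons of IL34, and activated T cells of GM-CSF.

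The study profiled 3 mouse melanomas by droplet single-cell RNA-seq: an untreated one, one regressed on vemurafenib and one progressed on the same drug. All 3 came from the same model on a C57BL/6 background (C57BL/6J in the study's methods), which carries, among its alleles, Braf LSL.V600E with Tyr.CreER and a Rosa26 LSL.tdTomato reporter, and in which topical 4-OH tamoxifen on flank skin starts the tumor. The Tyr promoter limits Cre to the melanocyte lineage, so mutant Braf, the kinase that vemurafenib inhibits, is meant to be switched on in tumor cells and not in the stroma, and the labels give no age. In the study's text the regressed tumor was taken after acute treatment and the progressed one at relapse on continued dosing. The treated tumors thus also differ in length of treatment. With 1 tumor in each group there was no replicate and no test, and treatment, its length, mouse and library cannot be told apart.

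The tables held 4095, 3726 and 4849 cells for the untreated, regressed and progressed tumors, with 22202192, 12413268 and 26948940 UMIs. The median cell carried 4496, 2658 and 4566 UMIs, and haemoglobin genes took 0.272%, 3.96% and 0.00848% of all UMIs. Each level below is given in CPM, the UMIs of a gene for every 1000000 UMIs of the named cells, in the order untreated, regressed, progressed, with an exact 95% Poisson interval. Intervals of ratios are exact binomial and those of shares of cells exact Clopper-Pearson, and all of them cover counting error only. The limit given for a count of 0 is instead 3 counts over the total. The authors' cluster names were kept. Their marker genes (at least 2-fold above all other cells) were present for Macrophages (6 of 6), Monocytes1 (4 of 4), Neutrophils (5 of 5), Mastcells (5 of 5), both NK/T clusters (5 of 5 each) and Bloodvessel (3 of 3). Monocytes2 showed 3 of 4 monocyte markers and 5 of 5 dendritic cell markers, so its label is uncertain. Of the 10 stroma clusters, 4 (Stroma1, Stroma4, Stroma7 and Stroma10) passed on 0 of 5 stroma markers. All other cells are mostly stroma here, so a stroma cluster can fail this rule. Stroma markers summed to 18982.5 CPM in untreated Stroma1 and 10884.2 in regressed Stroma10, against 1824.82 and 1599.76 in Macrophages. In the progressed tumor Stroma4 held 17471.4 and Stroma7 8646.35, against 2210.32 in Macrophages. Different clusters made up most of the stroma in each tumor. Stroma2 led in the untreated (1144 cells), Stroma10 in the regressed (1537 cells) and Stroma6 in the progressed tumor (1255 cells).

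All 8 genes are protein-coding in the GRCm38 annotation. Csf1 spans chr3:107741048-107760469, Il34 chr8:110741829-110805949, Csf2 chr11:54247270-54249899, Csf3 chr11:98700183-98703631, Csf2ra chr19:61217191-61228461, Csf2rb chr15:78325800-78351001 and Csf3r chr4:126023441-126044975. RefSeq promoter windows of 300 bases, from 250 bases before to 50 after the start site, were matched for 4 of the 8. They are shown for 2 ligands with very different sources in these tumors, Csf1 across the stroma (chr3:107760420-107760719, minus strand) and Csf2 in lymphocytes (chr11:54249850-54250149, minus strand), and for 2 receptor chains of myeloid cells, Csf2ra (chr19:61228369-61228668, minus strand) and Csf3r (chr4:126024409-126024708, plus strand). Capitals mark the motifs found on either strand.

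Csf1: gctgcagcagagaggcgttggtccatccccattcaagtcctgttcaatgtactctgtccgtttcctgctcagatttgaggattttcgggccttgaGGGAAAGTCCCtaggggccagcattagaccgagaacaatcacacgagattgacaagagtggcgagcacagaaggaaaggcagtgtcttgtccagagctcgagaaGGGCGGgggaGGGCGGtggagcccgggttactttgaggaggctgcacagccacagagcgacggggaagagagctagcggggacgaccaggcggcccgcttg

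Csf2: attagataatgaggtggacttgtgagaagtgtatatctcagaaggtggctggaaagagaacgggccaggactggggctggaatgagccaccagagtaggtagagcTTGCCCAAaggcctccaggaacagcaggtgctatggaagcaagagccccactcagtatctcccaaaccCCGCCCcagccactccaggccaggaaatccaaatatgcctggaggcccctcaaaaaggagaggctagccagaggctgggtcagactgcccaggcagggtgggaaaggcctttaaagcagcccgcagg

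Csf2ra: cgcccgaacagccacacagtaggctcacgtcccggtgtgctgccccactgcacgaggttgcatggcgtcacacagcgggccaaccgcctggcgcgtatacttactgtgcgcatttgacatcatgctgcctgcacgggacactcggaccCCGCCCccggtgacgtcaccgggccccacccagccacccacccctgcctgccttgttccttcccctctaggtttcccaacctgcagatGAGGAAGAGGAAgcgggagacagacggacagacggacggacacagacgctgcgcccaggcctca

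Csf3r: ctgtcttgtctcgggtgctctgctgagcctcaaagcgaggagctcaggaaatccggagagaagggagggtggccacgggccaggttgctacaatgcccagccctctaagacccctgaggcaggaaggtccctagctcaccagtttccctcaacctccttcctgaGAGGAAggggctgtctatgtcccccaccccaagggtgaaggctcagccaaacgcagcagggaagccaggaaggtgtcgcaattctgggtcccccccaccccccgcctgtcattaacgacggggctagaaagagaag

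The letters searched were GAGGAA (the core of PU.1 sites, held by 28.3% of all 32851 promoter windows), TTGCNNAA (C/EBP, 10.8%), TGANTCA (AP-1, 7.81%), 2 forms of the kappa B motif (0.444% and 1.63%), TATAAA (13.6%) and GGGCGG (35.7%). Csf1 held GGGAAAGTCC at -155, overlapping GGAAAGTCCC on the other strand at -154, and GGGCGG at -51 and -41. Csf2 held TTGCCCAA at -145 and CCGCCC at -77. Both receptor windows held the PU.1 core, a motif of a factor required for the myeloid lineage: Csf2ra at -14 and -8, beside CCGCCC at -102, and Csf3r at -86. These matches describe the letters in the windows, and binding was not measured.

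**Figure D1:**
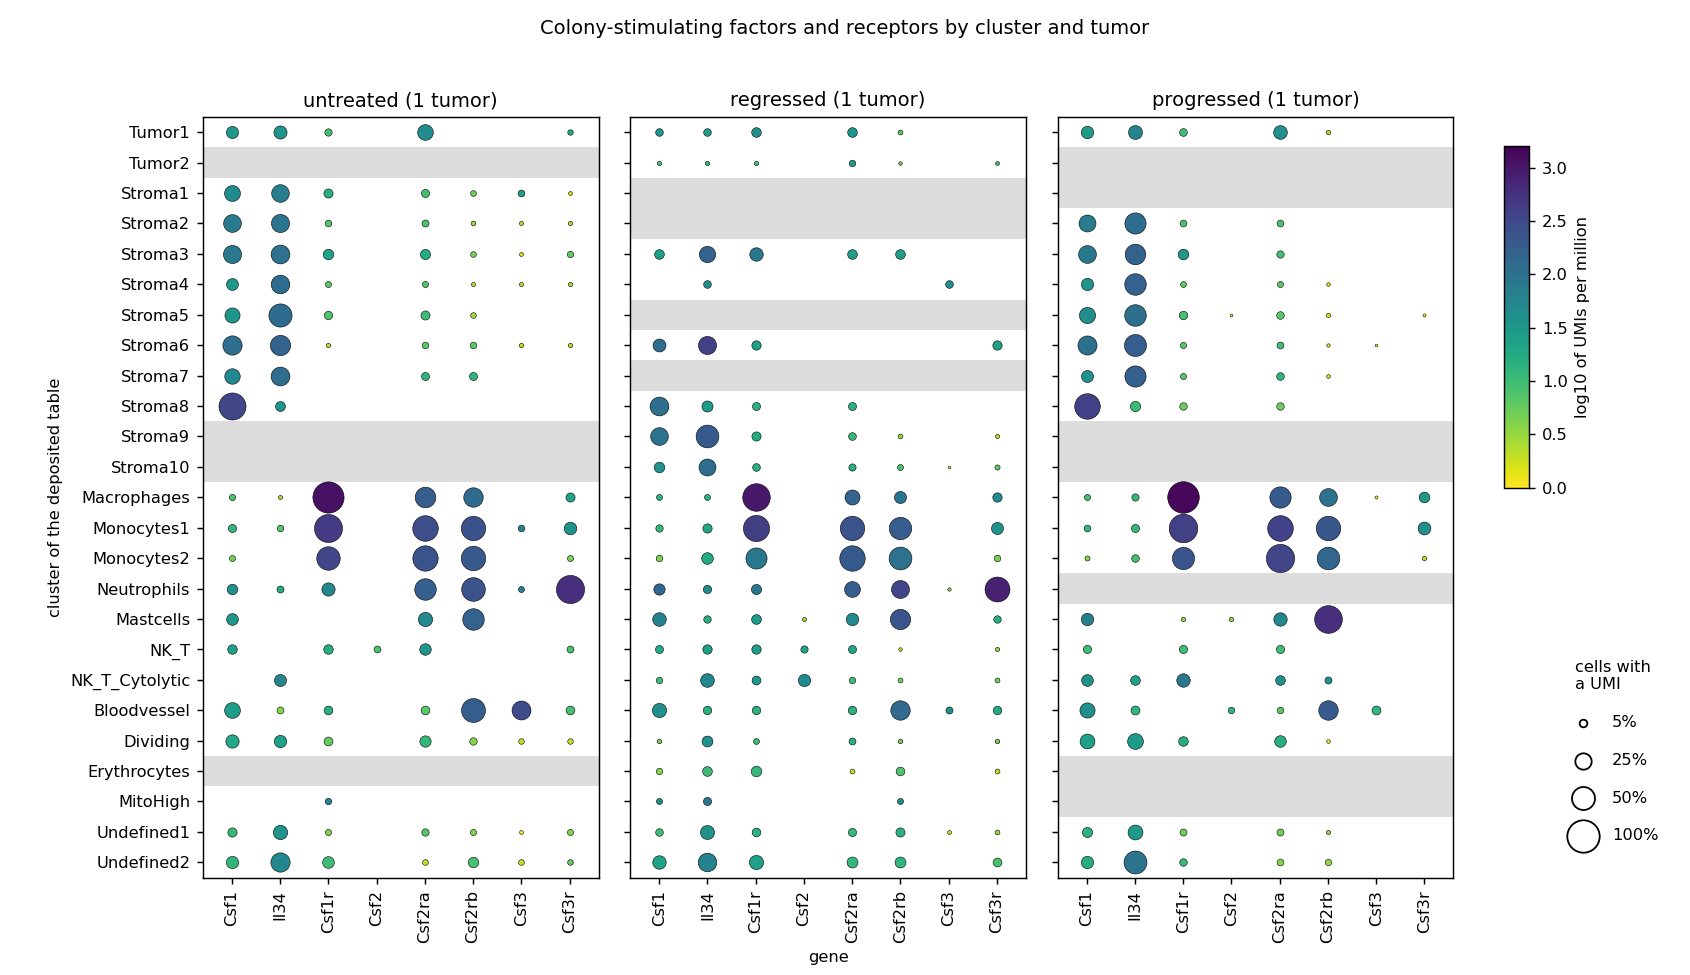
Level (colour, CPM on a log scale) and share of cells with a UMI (dot size) of the 8 genes (columns) in each of the 25 clusters (rows), 1 panel for each tumor. A grey band marks a cluster with under 10 cells in that tumor. Csf1 and Il34 fill the stroma rows, Csf1r the macrophage and monocyte rows, and Csf3r the neutrophil row.

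Csf1 was detected in all 3 tumors and mainly in the stroma clusters. It gave 2859 UMIs in 2107 of 12670 cells, and the stroma held 85.3%, 69.3% and 87.1% of them. In the stroma as a whole Csf1 stood at 62.9 (58.8 to 67.1), 49.2 (43.9 to 54.9) and 67.6 CPM (63.9 to 71.6). The regressed tumor was thus the lowest and the untreated and progressed tumors were close: the log2 ratio was -0.35 (-0.54 to -0.17) for regressed over untreated, 0.46 (0.28 to 0.64) for progressed over regressed, and 0.11 (-0.02 to 0.23) for progressed over untreated. None of these reached 2-fold. Equal weights were given only to clusters of at least 10 cells in every tumor (Stroma3, Stroma4, Stroma6 and Stroma8). Under them the first 2 ratios were -1.14 and 1.24. Stroma9 and Stroma10, with 310 and 1537 of the 1918 regressed stroma cells, were left out.

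In the untreated and progressed tumors a single small cluster, Stroma8, carried far more Csf1 than the rest of the stroma. By the marker rule above it passed on 1 of 5 stroma, 2 of 4 monocyte and 1 of 3 blood vessel markers. Pecam1, Cdh5, Adgre1, Cd68 and Mrc1 were at 0 UMIs in it. Its stroma markers summed to 30754.5, 26780.5 and 28802.8 CPM, against 17129.9 in all other cells, which are mostly stroma. It thus carried stroma markers, but which kind of stroma cell it holds is uncertain. Its Csf1 level was 345 (248 to 466), 112 (48.2 to 220) and 389 CPM (306 to 488), from 42, 8 and 74 UMIs. A Csf1 UMI was seen in 16 of 23, 6 of 18 and 13 of 21 Stroma8 cells, at median depths of 4911, 4258.5 and 8563 UMIs. With cells of at least 1000 UMIs thinned to 1000, the shares were 30.4%, 12.5% and 19.0%. Here too the regressed tumor was lowest, with a log2 ratio of -1.63 (-2.93 to -0.52) against untreated and 1.80 (0.75 to 3.07) for progressed over regressed. Without Stroma8 the log2 ratios of the stroma were -0.32 and 0.40. Among the other stroma clusters of at least 10 cells, Csf1 ran from 31.5 to 114 in the untreated and from 35.2 to 108 in the progressed tumor. Stroma6, present in all 3, held 114, 121 and 108, and its regressed value rests on 5 UMIs. In the regressed tumor Stroma9 stood at 95.5 and the large Stroma10 at 34.8, and they gave 132 and 169 of the 316 Csf1 UMIs of the stroma.

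Outside the stroma, Csf1 was seen in neutrophils, mast cells and blood vessels, among others. Neutrophils held 38.8 (29.5 to 50) and 141 CPM (102 to 191) in the untreated and regressed tumors, from 59 UMIs in 39 of 391 cells and 42 UMIs in 25 of 216 cells. The log2 ratio of 1.86 (1.26 to 2.46) lay above the median of all genes in neutrophils, 0.58. Beside that shift of the whole cluster, the sum of its 5 neutrophil markers was 233366 and 97387 CPM. Among neutrophils of at least 1000 UMIs (383 and 142 cells), each thinned to 1000, 3.13% and 9.15% had a Csf1 UMI. The progressed tumor had only 4 neutrophils and gave no usable level. Mast cells stood at 33.1, 63.8 and 67.3, from 2, 21 and 20 UMIs, and blood vessel cells at 27, 42.0 and 44.6, from 21, 9 and 7 UMIs. Macrophages, which respond to CSF1, held 8.26, 14.8 and 8.69, and Tumor1 cells 31.7, 33.1 and 27.8, from 7, 5 and 23 UMIs. In the regressed tumor Tumor2 was the larger tumor cell cluster, with 349 cells against 61 in Tumor1, and stood at 8.99. Tumor2 had 4 cells in the untreated and 4 in the progressed tumor.

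Il34, the other ligand of the CSF1 receptor, was also a stroma transcript but followed another order across the tumors. It gave 5667 UMIs in 3412 cells, of which the stroma held 90.3%, 82.8% and 87.8%. Stroma levels were 98.6 (93.5 to 104), 135 (126 to 145) and 154 CPM (148 to 160), in which no interval overlapped another. The log2 ratio was 0.46 (0.33 to 0.58) for regressed over untreated, 0.19 (0.07 to 0.30) for progressed over regressed and 0.64 for progressed over untreated. Weighting equally only the clusters of at least 10 cells in every tumor (Stroma3, Stroma4, Stroma6 and Stroma8) turned the middle ratio to -0.25.

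Stroma8, the cluster with the highest Csf1 level in the untreated and progressed tumors (clusters of at least 10 cells), had little Il34: 32.8, 27.9 and 10.5 CPM from 4, 2 and 2 UMIs. Every other stroma cluster with at least 10 cells in the untreated and progressed tumors lay above it. Stroma6 held 162, 386 and 186, the middle value from 16 UMIs in 13 cells. Stroma4 stood at 117 and 167 and Stroma5 at 124 and 109 in the untreated and progressed tumors. In the regressed tumor Stroma9 held 205 and Stroma10 115. Across 46 groups of cells (clusters of at least 30 cells in 1 tumor, which share libraries and depth) Csf1 and Il34 correlated with r = 0.60. Stroma8, with 23, 18 and 21 cells, is not among these groups.

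The keratin-rich cluster Undefined2, with 3 of 3 keratinocyte markers, was a further site of Il34. It stood at 50.7 (37.7 to 66.6), 63.6 (48.4 to 82.0) and 96.2 CPM (83.4 to 111), with a log2 ratio of 0.60 (0.17 to 1.04) for progressed over regressed. Tumor1 cells held 36.3, 26.5 and 56.7, from 8, 4 and 47 UMIs, and Tumor2 cells of the regressed tumor 11.2. Monocytes and macrophages held little, 3.98, 18.3 and 10.7 from 11, 28 and 27 UMIs, and NK/T cells 12.5, 32.7 and 11.2. These low levels were highest in the regressed tumor, the one with the most haemoglobin UMIs in its cells, and the part of free RNA in them was not tested.

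**Figure D2:**
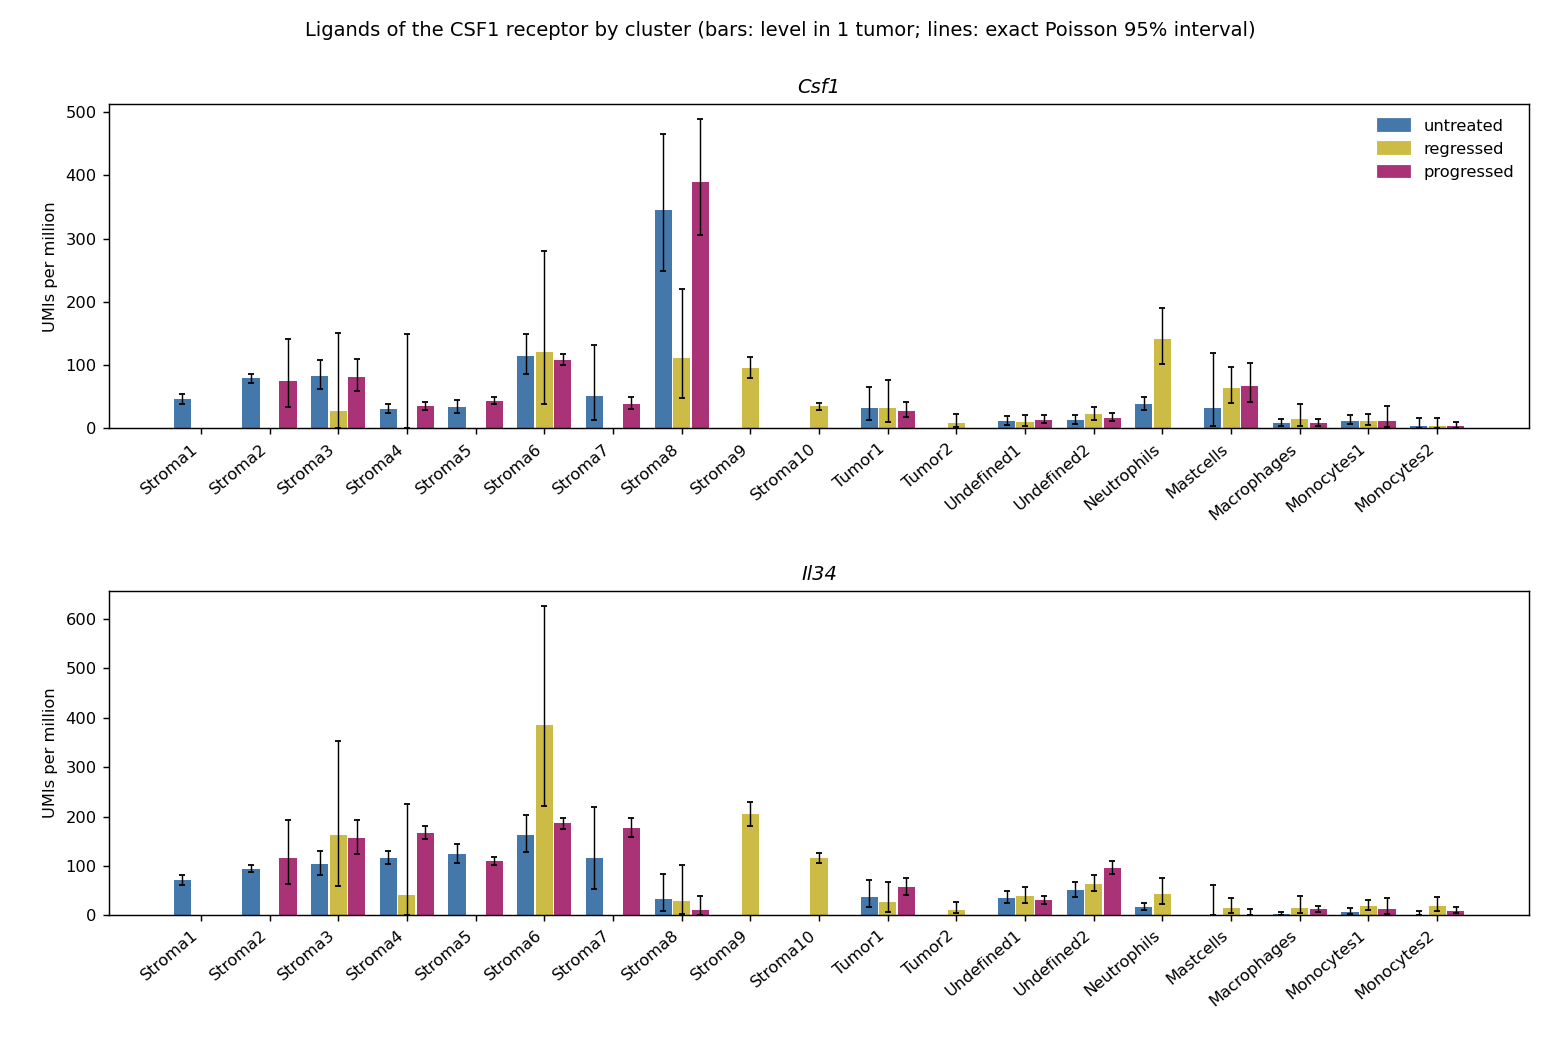
Level of Csf1 and Il34 (CPM; lines are exact 95% Poisson intervals) by cluster and tumor; clusters under 10 cells in a tumor are not drawn. Stroma8 stands highest for Csf1 in the untreated and progressed tumors, at 345 and 389, and low for Il34, at 32.8 and 10.5.

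Csf2, the GM-CSF gene, was the rarest of the 8, with 26 UMIs in 21 cells, of which 20 UMIs in 16 cells came from NK/T cells of the regressed tumor. There 16 of 238 NK/T cells (6.72%, 3.89% to 10.7%) held a UMI, a level of 27.3 CPM (16.7 to 42.1). The cluster NK_T_Cytolytic held 9 UMIs in 8 of 58 cells and NK_T 11 UMIs in 8 of 180. In both clusters 7 of the 8 cells with Csf2 also had a UMI of Cd3e, a component of the T cell receptor complex, as did 49 of 50 NK_T_Cytolytic and 102 of 172 NK_T cells without Csf2. The untreated tumor gave 1 UMI in 40 NK/T cells, and the progressed tumor 0 of 41, which allows a share of up to 7.32%. The log2 ratio for regressed over untreated in NK/T cells was 2.12 with an interval of -0.52 to 7.49, so a difference per cell was not detectable at this depth. The regressed tumor also had the most NK/T cells, 238 against 40 and 41. The other 5 Csf2 UMIs lay in mast cells (1 each in both treated tumors) and, in the progressed tumor, in 1 blood vessel cell (2 UMIs) and 1 Stroma5 cell. Monocytes and macrophages held 0 in every tumor, which allows up to 1.09, 1.96 and 1.19 CPM, and neutrophils 0 as well.

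Csf3, the G-CSF gene, lay mostly in the untreated tumor, where it was carried by few cells with many UMIs each. The intervals of Csf3 treat every UMI as a separate count, so they leave out this spread between cells. All cells together gave 494, 15 and 4 UMIs in 86, 6 and 4 cells. In CPM that is 22.3 (20.3 to 24.3), 1.21 (0.676 to 1.99) and 0.148 (0.0404 to 0.380), a log2 ratio of -4.20 (-5.05 to -3.47) for regressed over untreated and -3.03 (-5.07 to -1.37) for progressed over regressed.

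Blood vessel cells were the leading site. They held 239, 8 and 2 Csf3 UMIs in 25 of 74, 2 of 48 and 2 of 28 cells. Their level was 307 (269 to 348), 37.3 (16.1 to 73.5) and 12.7 CPM (1.54 to 46.0), with a log2 ratio of -3.04 (-4.27 to -2.04) for regressed over untreated. The regressed and progressed tumors overlapped (log2 ratio -1.55, -4.82 to 0.77). The share of vessel cells with a UMI was 33.8%, 4.17% and 7.14%, and 16.2%, 2.44% and 0% after thinning to 1000 UMIs, where 0 of 28 allows up to 10.7%. NK/T cells, which should lack Csf3, gave 0 UMIs in 40, 238 and 41 cells, which allows shares of up to 7.5%, 1.26% and 7.32%, and the median vessel cell carried 9089, 3504.5 and 4089.5 UMIs.

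The vessel cells with Csf3 carried endothelial markers. All 25 in the untreated tumor had UMIs of Pecam1 and Cdh5, junction proteins of endothelium, and of Selp, the adhesion molecule P-selectin of activated vessels, and 20 of 25 had Sele, E-selectin. Of the 49 vessel cells without Csf3, 24 had Selp and 12 Sele. The cells with Csf3 were also deeper, at a median of 15227 UMIs against 7468, and the part of depth in these shares was not tested. S100a8, a neutrophil transcript, was found in 24 of the 25 and in 42 of the 49, at 2460 and 611 CPM, and the myeloid cytokine Il1b in 15 of the 25 and 19 of the 49, at 364 and 141 CPM. The part of neutrophil or other myeloid RNA in the Csf3 of these cells was not tested.

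Other cells of the untreated tumor also carried Csf3. Stroma1 held 78 UMIs in 18 of 472 cells, all with Col1a1 and 12 with Il6. Neutrophils held 87 UMIs in 11 of 391 cells, 63 of them in 2 cells, and Monocytes1 65 UMIs in 8 of 225 cells, 51 of them in 2 cells. All 11 neutrophils and all 8 monocytes with Csf3 also had Il1b, as did 374 of 380 neutrophils and 186 of 217 Monocytes1 cells without it. Levels in neutrophils were 57.2 (45.8 to 70.6) in the untreated and 3.36 (0.0851 to 18.7) in the regressed tumor, the latter from 1 UMI (log2 ratio -4.09, -9.41 to -1.57). Monocytes1 held 57.8 CPM in the untreated tumor and 0 UMIs in the others. A floor of 3 UMIs per cluster would put the level 15.9-fold lower in the regressed and 4.80-fold lower in the progressed tumor. These folds treat every UMI as a separate count, so they are not lower bounds on a difference between cells. By cells, 8 of 225 held Csf3 in the untreated, 0 of 197 in the regressed and 0 of 53 in the progressed tumor. With only 53 cells in the progressed tumor, no smallest drop can be given there. The stroma as a whole stood at 7.03, 0.778 and 0.0568, from 99, 5 and 1 UMIs, with a log2 ratio of -3.18 (-4.83 to -1.90) for regressed over untreated. Of the 99 UMIs, 78 lay in Stroma1, a cluster with 472 cells in the untreated and 1 in the regressed tumor. With only Stroma3, Stroma4, Stroma6 and Stroma8 weighted equally, which leaves out Stroma1, the ratio turned to 2.77. That value rests on 1 UMI in Stroma4 of the regressed tumor.

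**Figure D3:**
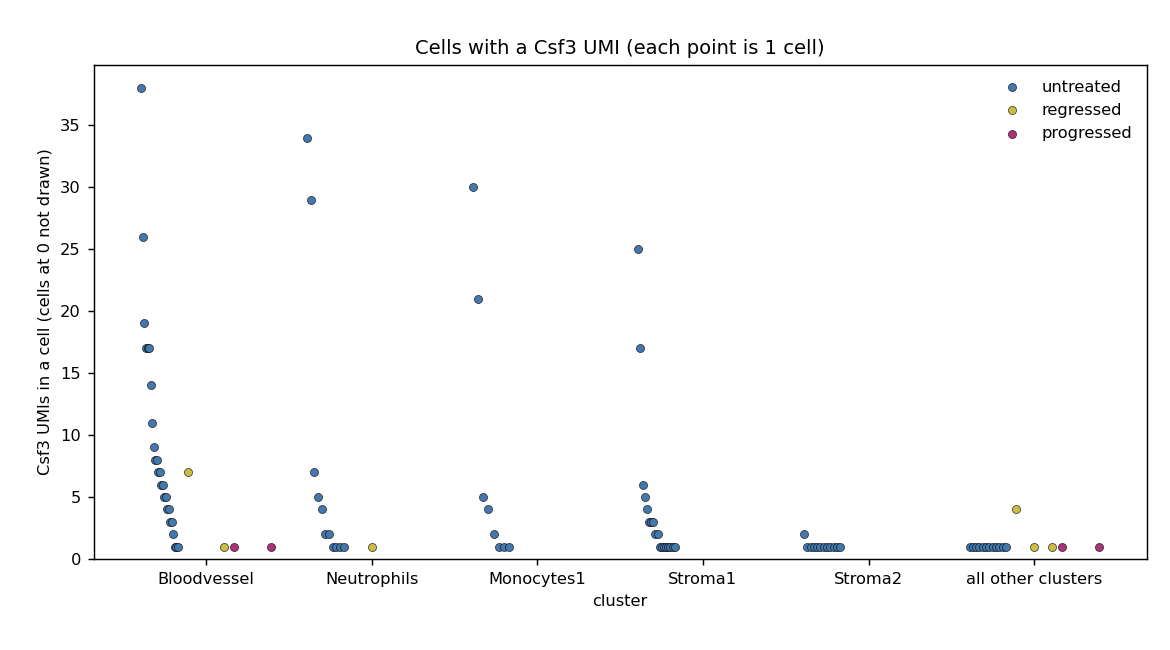
Csf3 UMIs in each cell that held at least 1 (1 point for each cell), by cluster and tumor; cells at 0 are not drawn. The untreated tumor has 86 such cells, up to 38 UMIs in a blood vessel cell, while the treated tumors have 6 (regressed) and 4 (progressed).

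The receptor Csf1r, through which both CSF1 and IL34 act and whose gene lies on chromosome 18, was concentrated in macrophages and monocytes, which held 89.2%, 74.8% and 90.3% of its 5453 UMIs by tumor. The joint level of those 3 clusters was 745 (713 to 778), 418 (386 to 452) and 820 CPM (785 to 856). The log2 ratio was -0.83 (-0.96 to -0.70) for regressed over untreated and 0.97 (0.84 to 1.10) for progressed over regressed. Within Macrophages the levels were 1167 (1107 to 1229), 998 (883 to 1125) and 1377 (1313 to 1444) and the log2 ratios were smaller, -0.22 (-0.42 to -0.04) and 0.46 (0.28 to 0.65). Macrophages made up 312 of 606, 143 of 397 and 339 of 553 cells of the joint group.

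In the other clusters of that group the tumors compared differently. Monocytes1 stood at 442 (404 to 483), 405 (363 to 451) and 386 (313 to 471), with intervals that overlap. Monocytes2 held 344 (291 to 405), 82.7 (58.0 to 115) and 230 (202 to 262), log2 ratios of -2.06 (-2.63 to -1.52) and 1.48 (0.96 to 2.02), and single cells there held up to 21, 4 and 22 UMIs. A Csf1r UMI was found in 92.6%, 72.0% and 95% of Macrophages, and in 67.1%, 58.7% and 71.4% after thinning to 1000 UMIs, while the median Macrophages cell had 3429, 1388 and 3450 UMIs. NK/T cells, which should lack Csf1r, showed 5%, 7.56% and 12.2%, at median depths of 3380.5, 2737.5 and 3122 UMIs. Neutrophils held 52.6 and 80.7 in the untreated and regressed tumors.

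Csf2ra, the GM-CSF receptor alpha chain, was spread over monocytes, macrophages and neutrophils, with less difference between tumors. Monocytes and macrophages held 229 (211 to 247), 215 (193 to 240) and 274 CPM (254 to 295). The log2 ratio was -0.09 (-0.28 to 0.11) for regressed over untreated, an interval that spans 0, and 0.35 (0.16 to 0.54) for progressed over regressed. The second of these was 0.06 without Monocytes2, whose cells numbered 69, 57 and 161. Monocytes1 stood at 276, 244 and 366, Monocytes2 at 244, 200 and 339, and Macrophages at 179, 152 and 205, so the progressed tumor had the highest value in each. Its interval overlapped that of the untreated tumor in Macrophages (181 to 231 and 156 to 205) and in Monocytes1 (295 to 449 and 246 to 308), and at 1000 UMIs a cell Monocytes1 stood at 279 in the untreated and 204 in the progressed tumor. Neutrophils held 177 and 188 in the untreated and regressed tumors, a log2 ratio of 0.09 (-0.35 to 0.51). Their part in all Csf2ra UMIs was 25.3%, 10.3% and 0.213%, which goes with 391, 216 and 4 neutrophils. Mast cells (49.6, 48.6 and 50.5) and Tumor1 cells (45.3, 33.1 and 41.0) held lower levels than the myeloid clusters. Tumor2 cells of the regressed tumor held 29.2.

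Csf2rb, the shared beta chain, was detected in mast cells, neutrophils, monocytes, macrophages and blood vessels. Its clearest difference was in mast cells, which use the chain for IL-3. They held 165 (79.3 to 304), 234 (185 to 292) and 589 CPM (505 to 683), from 10, 77 and 175 UMIs in 16, 106 and 85 cells. The log2 ratio for progressed over regressed was 1.33 (0.94 to 1.74). Before thinning, a Csf2rb UMI was seen in 43.8%, 38.7% and 72.9% of mast cells. The unthinned shares of NK/T cells were 0% (0 of 40, which allows up to 7.5%), 0.840% and 2.44%. After thinning the mast cell shares were 13.3%, 19.1% and 41.0%.

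The neighbouring gene Csf2rb2, which encodes a beta chain used by IL-3 alone, showed the same order in mast cells, 49.6, 60.8 and 172 CPM, with a log2 ratio of 1.5 (0.73 to 2.32) for progressed over regressed. The transcripts of the 2 genes share sequence: 18.4% of all runs of 50 bases in the longest Csf2rb transcript also occur in Csf2rb2, but 0 of 951 runs in its last 1000 bases do. Reads come from the 3' end and only unique ones were counted, yet how reads were split between the pair remains uncertain.

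In monocytes and macrophages Csf2rb was highest in the untreated tumor. Monocytes and macrophages held 191 (175 to 208), 145 (127 to 166) and 129 (115 to 143), with log2 ratios of -0.39 (-0.62 to -0.16) and -0.18 (-0.43 to 0.08), the second within counting error. The second was positive within each cluster, 0.19 (-0.44 to 0.89) in Macrophages, 0.23 (-0.24 to 0.69) in Monocytes1 and 0.41 (-0.08 to 0.92) in Monocytes2, with intervals that span 0. At an equal depth of 1000 UMIs a cell the first was 0.02. Neutrophils held 248 (223 to 274) and 339 (277 to 412), a log2 ratio of 0.45 (0.12 to 0.77) that lies below the median of all genes there, 0.58, and becomes -0.38 under TMM scaling (trimmed mean of M-values, which shifts every gene of that comparison by -0.83). Blood vessels held 180, 126 and 197, with intervals of the ratios that span 0. Nearly no Csf2rb was seen in tumor cells, with 0, 3 and 2 UMIs.

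Csf3r, the G-CSF receptor, marked neutrophils, which held 87.9%, 68.8% and 14.8% of its UMIs. In all cells together it stood at 45.2, 27.9 and 2.26 CPM, beside 391, 216 and 4 neutrophils. Within neutrophils the level was 580 (542 to 619) in the untreated and 800 (702 to 908) in the regressed tumor. That log2 ratio of 0.46 (0.25 to 0.67) lay below the all-gene median of 0.58 and turned to -0.37 under TMM scaling, so no direction can be given. The share of neutrophils with a UMI was 75.2% and 58.8%, and 43.3% and 50.7% after thinning, at median depths of 3257 and 1251.5 UMIs. The 4 neutrophils of the progressed tumor held 9 UMIs, and each of them had at least 1. With so few neutrophils there, monocytes and macrophages held 82.0% of the progressed tumor's 61 Csf3r UMIs. Monocytes1 stood at 36.5, 37.6 and 40.2 and Macrophages at 20.7, 48.3 and 30.

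**Figure D4:**
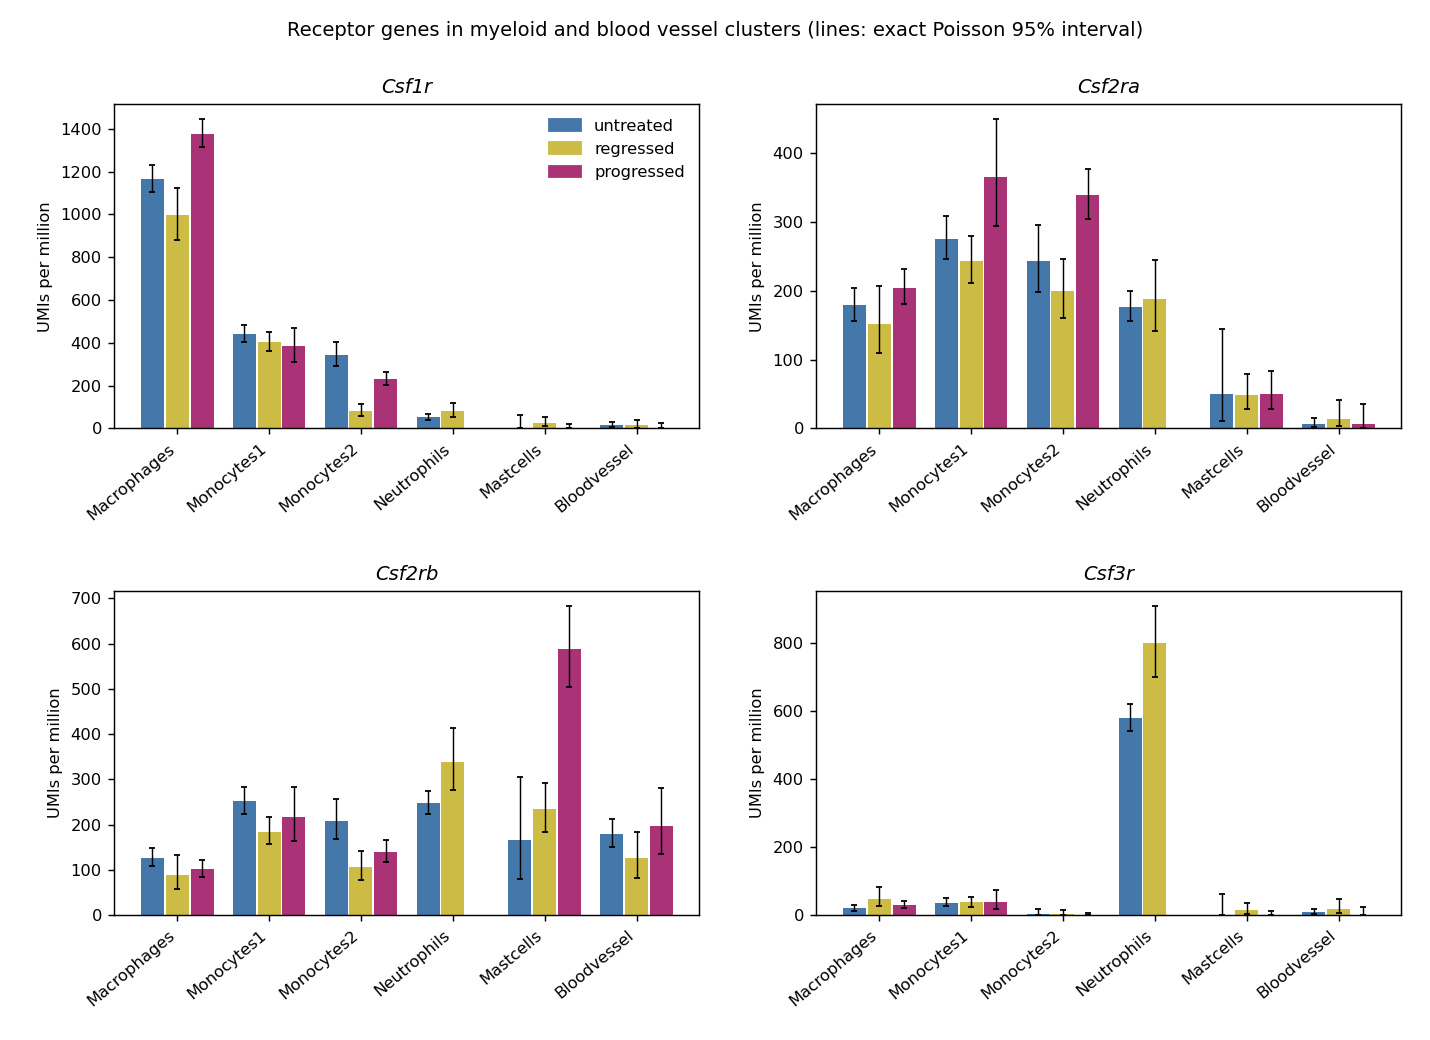
Level of the 4 receptor genes (CPM; lines are exact 95% Poisson intervals) in myeloid, mast cell and blood vessel clusters by tumor; clusters under 10 cells in a tumor are not drawn. Csf2rb in mast cells is highest in the progressed tumor at 589, and Csf1r in Monocytes2 is lowest in the regressed at 82.7; Csf3r and Csf2rb in neutrophils are higher in the regressed tumor on this scale and lower under TMM scaling.

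The stroma of the regressed tumor carried more UMIs of the receptor genes than that of the other tumors. Csf1r stood at 9.45, 17.0 and 8.36 CPM in stroma, Csf2ra at 8.81, 13.7 and 8.30, Csf2rb at 3.69, 7.63 and 1.31, and Csf3r at 2.13, 5.29 and 0.114. Tyrobp, a signalling adaptor of leukocytes, moved with them at 54.9, 154 and 26.8. These values are a small part of those in myeloid cells, and the part of leukocyte RNA in them was not tested.

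**Figure D5:**
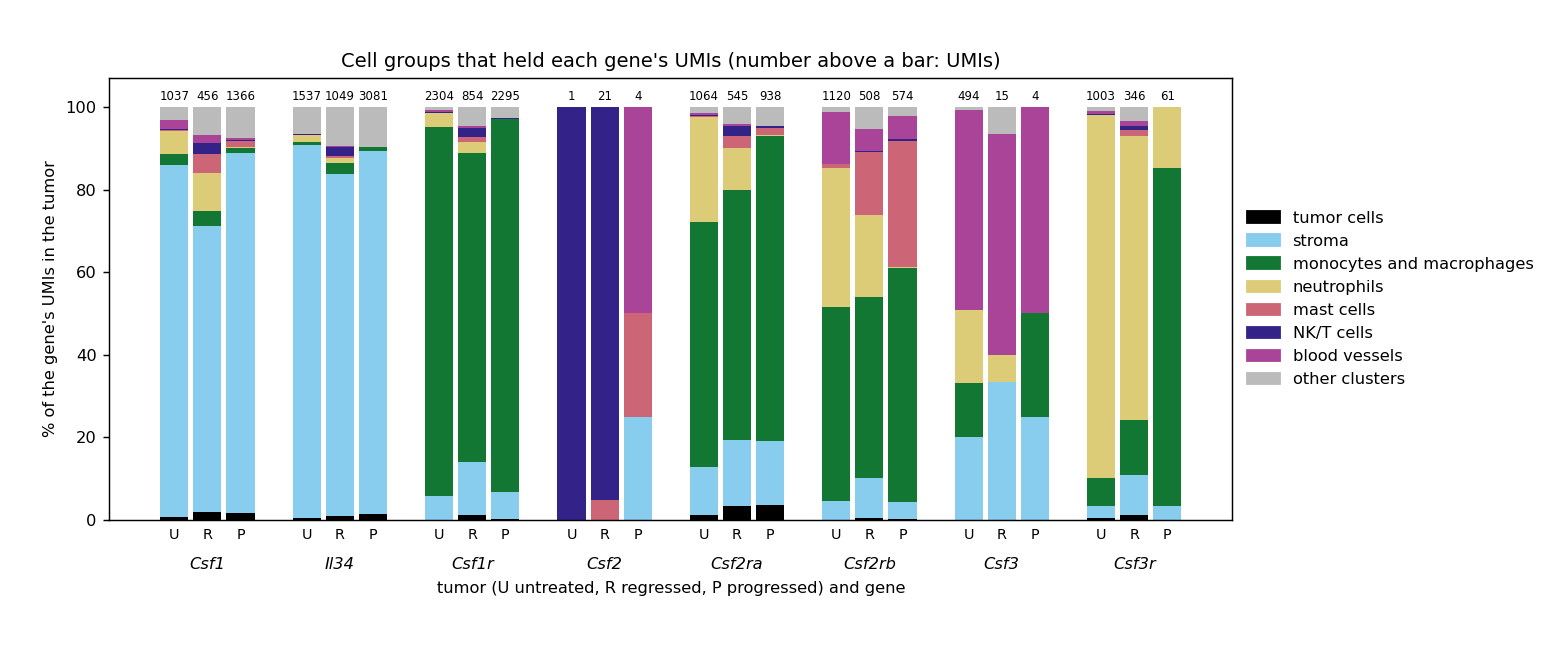
Share of each gene's UMIs (percent, stacked) held by each cell group in each tumor, with the number of UMIs above the bar. Stroma holds most of Csf1 and Il34, monocytes and macrophages most of Csf1r, and the neutrophil part of Csf3r goes from 87.9% in the untreated to 14.8% in the progressed tumor.

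Counting members past 2-fold against all genes with at least 20 UMIs over the 2 tumors gave small counts. In stroma, 3 of the 7 members that passed the filter differed by 2-fold or more between regressed and untreated (Csf3 lower, Csf2rb and Csf3r higher), beside 20.8% of 14791 genes. For progressed over regressed 3 of 6 did (Csf1r, Csf2rb and Csf3r, all lower), beside 20.8% of 14806 genes. In monocytes and macrophages 2 of 7 did for regressed over untreated (Il34 higher, Csf3 lower; 14.9% of all genes) and 0 of 6 for progressed over regressed (16.5%). In neutrophils it was 3 of 7 (Csf1 and Il34 higher, Csf3 lower; 35.0%), in mast cells 1 of 3 for progressed over regressed (Csf2rb; 17.0%), and in blood vessels 1 of 3 for regressed over untreated (Csf3; 24.8%). The members of the filtered lists are those with enough UMIs in at least 1 tumor, so these are counts and no more.

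The wider pathway was read from lists of its parts. Over all genes, 13.7% were 2-fold higher and 7.09% lower in stroma for regressed over untreated, and 4.99% higher and 15.9% lower for progressed over regressed. In monocytes and macrophages the shares were 11% and 3.92%, and then 4.37% and 12.1%. Among the feedback inhibitors that cytokine receptors induce through STAT proteins, Socs3 in stroma stood at 1611, 384 and 1175 CPM and Socs1 at 188, 40.2 and 121. The log2 ratios for regressed over untreated were -2.07 for Socs3 and -2.23 for Socs1, and 2 of 4 members were 2-fold lower and 0 higher (list median -1.06, all genes 0.14). For progressed over regressed 3 of 4 were 2-fold higher, Socs1 by 1.59, Socs2 by 1.31 and Socs3 by 1.61 on the log2 scale (list median 1.45, all genes -0.20). Monocytes and macrophages showed the same order for Socs3, 741, 291 and 591, with 2 of 4 members lower and then 2 of 4 higher. Cish was the other at 10.1, 3.93 and 9.50, a regressed level that rests on few UMIs.

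Among transcription factors of myeloid cells, Cebpb, which acts in emergency granulopoiesis, was highest in the regressed tumor, at 213, 1176 and 153 in monocytes and macrophages (log2 ratio 2.47 for regressed over untreated, -2.94 for progressed over regressed), and the stroma followed the same order at 57.4, 339 and 51.4. Spi1, which encodes PU.1, held 572, 465 and 541 CPM in monocytes and macrophages.

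Signal transducers were counted in the same way. In monocytes and macrophages 0 of 12 reached 2-fold in either ratio (medians -0.05 and 0.00), with Tyrobp at 4309, 3373 and 3418 and Stat3 at 165, 124 and 166. In stroma 4 of 12 were higher for regressed over untreated, beside 13.7% of all genes, and 3 of 11 lower for progressed over regressed, beside 15.9%. In neutrophils 3 of 11 were higher for regressed over untreated (median 0.68), beside 30.1% of all genes there. Cytokines that induce the ligands, with their receptors, had 2 higher and 1 lower of 7 in stroma and 1 higher and 2 lower of 8 in monocytes and macrophages for regressed over untreated. Il1b stood at 1493, 664 and 418 in monocytes and macrophages, and Il33, an alarmin of stroma, at 140, 36.0 and 73.1 in stroma. For progressed over regressed the counts were 2 higher and 3 lower of 7 in stroma and 1 higher and 0 lower of 7 in monocytes and macrophages. The shares of all genes were then 4.99% and 15.9% in stroma and 4.37% and 12.1% in monocytes and macrophages.

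Other growth factors and their receptors had 2 higher and 0 lower of 7 in stroma for regressed over untreated, beside 13.7% and 7.09% of all genes. For progressed over regressed 1 was higher and 3 lower of 8, beside 4.99% and 15.9%. Kitl, the ligand of the mast cell receptor Kit, stood at 78.9, 122 and 94.2 in stroma. In monocytes and macrophages the list had 1 higher and 1 lower of 7 and then 1 higher and 2 lower of 7. Of the beta chain partners, the IL-3 receptor gene Il3ra in stroma stood at 46.0, 19.5 and 32.6 CPM, the 1 of 2 that was 2-fold lower for regressed over untreated, and 0 of 2 passed 2-fold in the remaining 3 comparisons of stroma, monocytes and macrophages. In mast cells, progressed over regressed, 1 of 3 was higher (Csf2rb2) and 1 lower (Il5ra, 51.7 and 10.1), beside 4.89% and 12.2% of all genes. The Il5ra level of the progressed tumor lies at about the floor of 3 UMIs.

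The genes most like each member over the 46 groups, by Pearson correlation of log2(CPM + 10) over 12538 genes, followed the cell types above. For Csf1 they were Dact3 (r = 0.74), Gm16118 and Creb3l1 (0.73 each), and for Il34 Atf5 (0.86), Tnxb and Ddr2 (0.83 each). Csf1r went with Adgre1 (0.94), the macrophage marker F4/80, and with Gm6377 and F13a1 (0.93 each). Csf2ra was closest to Cd300a and Cfp (0.93 each) and Lrrc25 (0.91), and Csf2rb to Csf2rb2 and Nrros (0.93 each) and Alox5ap (0.91). Csf3 was closest to Selp (0.85), Tmem252 (0.81) and Rnd1 (0.77), and Csf3r to the formyl peptide receptor genes Fpr1 and Fpr2 (0.94 each) and Sirpb1b (0.92). Csf1r and Csf2ra correlated with r = 0.83 and the GM-CSF receptor chains Csf2ra and Csf2rb with r = 0.76. All of these are descriptions over groups that share tumors and depth.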

How the data were processed

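Cells of 3 tumors were profiled with the 10x Chromium 3' v2 kit. The authors deposited UMI counts per feature and cell, with cluster labels and totals of each cell as other columns. According to the submitters' processing notes, reads were aligned with GSNAP to GRCm38 (mm10) and clustered with Seurat 2.2.0. Per the study's methods, unique sense reads over exons were counted and cells under 300 UMIs left out, and the annotation release is not given in the sources used here. Of 36530 features 31049 matched a symbol, and the table sums exceed the deposited cell totals by 5.02%. Cells were used as deposited with no doublet caller, and cell names carry no barcode, so shared barcodes were not counted.

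Counts were summed per cluster and tumor with Python 3.11.15, numpy 2.4.6 and scipy 1.17.1. Levels are in CPM, UMIs for every 1000000 UMIs of the group, with exact intervals at 95%. A group at 0 was set to a floor of 3 UMIs. With 1 tumor per group no test was made, and a gene was counted as different past 2-fold with at least 20 UMIs over both tumors. The members and lists were chosen with earlier results of these data known, and at most 4 genes per list, those with the most UMIs, were named, beside genes named in cells with Csf2 or Csf3 and where a count was small (chosen after their values were seen). Alternatives were TMM scaling (edgeR 4.0.16, R 4.3.3), totals without haemoglobin genes, cells of at least 1000 UMIs, thinning to 1000 UMIs (which leaves out 92, 703 and 55 cells), equal weights per cluster or per cell, and leaving out Monocytes2 or the deepest 5% of cells. Equal weights per cluster used only clusters of at least 10 cells in every tumor. The scripts were tested on simulated data. Promoters came from RefSeq, GRCm38.p6. An allele of the model and a listed transcription factor are not reported here, nor are the counts over that factor's list.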

Additional observations from a re-analysis of the deposited data

Results flagged for a closer look

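The items here are members whose ratio between the same 2 tumors went in opposite directions in 2 cell groups, with both 95% intervals off 0. With 1 tumor in each group, none of these differences was tested. Csf1 for regressed over untreated had a log2 ratio of 1.86 in neutrophils and -0.35 in stroma, 2.22 apart. Csf1r for regressed over untreated stood at 0.84 in stroma and -0.83 in monocytes and macrophages, 1.68 apart, and for progressed over regressed at -1.02 and 0.97, 1.99 apart. Csf2ra for progressed over regressed was 0.35 in monocytes and macrophages and -0.72 in stroma, 1.07 apart. Csf2rb for regressed over untreated was 1.05 in stroma and -0.39 in monocytes and macrophages, 1.44 apart, and for progressed over regressed 1.33 in mast cells and -2.54 in stroma, 3.88 apart. In 5 of the 6 the stroma value rests on receptor UMIs at under 20 CPM.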

How the results depend on the processing

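For 16 ratios, 121 values under other settings were computed: 112 kept their sign and 9 changed it, 5 of these with a main interval off 0. In all, 82 stayed within the main counting interval, 34 moved out of it and 5 turned. Below, pairs are regressed over untreated and then progressed over regressed, as log2 ratios. TMM scaling gave Csf1 in stroma -0.60 and 0.77, Il34 0.21 and 0.49, Csf1r in monocytes and macrophages -1.06 and 1.24, Csf2ra -0.31 and 0.62, and Csf2rb 0.093 for the second pair; in neutrophils Csf1 was 1.03, Csf3r -0.37 and Csf2rb -0.38. It shifts all genes alike, by -0.25 and 0.31 in stroma, -0.23 and 0.27 in monocytes and macrophages and -0.83 in neutrophils. Thinning to 1000 UMIs gave Csf1 in stroma -0.64 and 0.81, Il34 0.28 and 0.33, Csf1r 1.21 for the second pair, and Csf2rb 0.016 and -0.57. Weighting equally the clusters of at least 10 cells in every tumor gave Csf1 -1.14 and 1.24 and Il34 -0.25 for the second pair. It gave Csf1r -0.39 and 0.42, Csf2ra 0.61 for the second pair, and Csf2rb -0.63 and 0.28. Csf3 in stroma was 2.77, which rests on 1 UMI in Stroma4 of the regressed tumor. Weighting cells equally gave Csf1 0.67 and Il34 0.37 for the second pair, Csf3 in blood vessels -5.11, and Csf1r -0.57 and 0.79. Without Monocytes2, Csf1r was -0.57 and 1.14 and Csf2ra 0.062 for the second pair. Macrophages alone, a setting chosen after seeing the data, gave Csf1r -0.22 and 0.46 and Csf2rb 0.19 for the second pair. The cause of these shifts was not tested. No ratio moved with totals free of haemoglobin genes, in cells of at least 1000 UMIs or without the deepest 5% of cells, nor with totals free of S100a8 and S100a9 (added after seeing the data). Csf3 gave no value after thinning in stroma, without the deepest 5% of cells in blood vessels, or without its 2 top cells (also added) in 1 tumor. Of 106 further values, for single clusters, shares, the genes past 2-fold and likeness, 36 stayed and 70 moved, 46 of these by thinning; with a pseudocount of 50 CPM, 1 of the 3 genes most like Csf1, Il34, Csf2ra and Csf3r was kept. No paired analysis was possible because each group holds 1 tumor. Depth limits Csf2 everywhere. Neutrophils of the progressed tumor number only 4, and the cause of that was not tested.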
